A study of Mus musculus with 2 samples.

Results

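The 7 genes described here act in cholesterol synthesis: Srebf2 and Insig1 control the pathway, and Hmgcs1, Idi1, Fdft1, Sqle and Msmo1 encode enzymes of it. They were chosen by symbol among the 32286 genes of a single-nucleus count table from regenerating mouse liver. No filter on their values was used, but earlier results of these data were known when they were chosen. All 7 were found, and each passed the minimum of 20 UMIs (unique molecular identifiers, 1 per captured transcript) over the sums compared in every comparison reported below.

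Cells build cholesterol from acetyl-CoA by way of mevalonate, the isoprenoid diphosphates, squalene and a series of sterols, and the liver is a main site of this synthesis. Srebf2 encodes SREBP-2, a transcription factor held in the membrane of the endoplasmic reticulum. When sterols are scarce the escort protein SCAP carries it to the Golgi, where it is cut, and the released part enters the nucleus and activates genes of the pathway. When sterols are plentiful INSIG proteins, of which Insig1 encodes one, retain the complex in the endoplasmic reticulum. Cox10, the gene deleted in this study, encodes the farnesyltransferase that makes heme O on the way to the heme A of cytochrome c oxidase, and its farnesyl substrate is a product of the same mevalonate pathway.

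The series holds 2 libraries, 1 labelled wild-type and 1 labelled Cox10-/-. The Cox10 allele was floxed in all mice, which were given either AAV8-Cre or AAV8-GFP once by retro-orbital injection. This adeno-associated virus infects mainly hepatocytes, and 70% of the liver was removed 4 weeks after it. The labels do not say which animal received which virus, and they give neither age nor sex. The treatment protocol places dissection at 4 days after the partial hepatectomy and the sample characteristics at 4 weeks, so the time in regrowth is not settled. Livers were perfused and digested, nuclei were isolated from the strained cell suspension, and RNA was captured by its 3' end on a droplet system. Each group is 1 library, so no test between groups could be run: ratios and levels carry 95% intervals that cover counting error only, not the spread between animals. A gene is called higher or lower here when its ratio is at least 1.5-fold with the whole interval on the same side of 1, and the share of all genes called by that rule is given beside the first count of a comparison.

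The wild-type library held 5448 nuclei with a median of 2853.5 UMIs, and the Cox10-/- library 5167 with a median of 2291, and 7 barcodes occurred in both. No deposited nucleus had over 19.99% of UMIs from mitochondrially encoded genes. With at most 10% of UMIs from mitochondrially encoded genes, 28.3% of wild-type and 60.7% of Cox10-/- nuclei were kept. Hepatocyte-like nuclei made up 97.0% of the kept wild-type nuclei (1496, median 4415 UMIs) and 37.3% of the kept Cox10-/- nuclei (1169, median 2658 UMIs), and all 15 hepatocyte markers were detected in both. Of the Cox10-/- ones, 432 formed a separate cluster with a median of 1120.5 UMIs, called the shallow cluster below. Its ribosomal protein transcripts stood at 2589 CPM (counts per 1000000 UMIs of the sum), against 629 CPM in the other, deeper Cox10-/- hepatocyte-like nuclei and 297 CPM in the wild-type ones. The library, zone and lineage comparisons of the 7 genes are given with and without it. Cox10 itself measured 35.8 CPM in hepatocyte-like nuclei of the wild-type library and 43.9 CPM in those of the other, and the ratio was 1.23 (1.01 to 1.49). The labels do not say which exon is floxed, and a 3' tag outside the deleted part would not show its loss, so this does not check the deletion.

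The first comparison asked how the pathway's transcripts differed between hepatocyte-like nuclei of the 2 libraries. Of the 7 genes, 5 were lower in the Cox10-/- library and 0 were higher, against 10.9% of all 11434 genes called lower and 16.3% called higher. The lower genes were Srebf2 and the enzymes Hmgcs1, Fdft1, Sqle and Msmo1. Idi1 and Insig1 differed by less than 1.5-fold. The median log2 ratio of the 7 genes was -0.80, and that of all genes -0.03.

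Of the controllers, Srebf2 had a wild-type level of 61.9 CPM (56.2 to 67.97) and a Cox10-/- level of 35.5 CPM (30.04 to 41.7). The ratio was 0.574 (0.473 to 0.693). Insig1, whose protein retains SCAP and SREBP-2 and whose gene is itself a known SREBP-2 target, stood at 301.9 CPM (289.2 to 315.0) and 284.5 CPM (268.5 to 301.2). Its ratio of 0.942 (0.877 to 1.01) has an interval that includes 1, and the interval leaves out a difference of 1.5-fold in either direction.

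Hmgcs1 encodes the cytosolic HMG-CoA synthase, the enzyme that feeds the mevalonate pathway. Its wild-type level was 81.8 CPM (75.3 to 88.7), its Cox10-/- level was 51.6 CPM (44.95 to 59.00), and the ratio of Cox10-/- to wild-type was 0.631 (0.537 to 0.739). Idi1, the isomerase of the isoprenoid diphosphates, measured 34.5 CPM (30.4 to 39.2) and 25.7 CPM (21.1 to 31.04), which gave a ratio of 0.744 (0.587 to 0.937). Both ratios depended on which nuclei were summed and how: Hmgcs1 kept its call under 7 of 14 other settings, and Idi1 was called lower under 2 of 14.

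The enzymes from squalene synthesis onwards differed most among the 7. Fdft1 encodes squalene synthase, the first enzyme committed to sterols. Wild-type nuclei held it at 108.6 CPM (101.0 to 116.5) and Cox10-/- nuclei at 35.5 CPM (30.04 to 41.7), which made it 3.06 (2.56 to 3.67)-fold lower in the latter. Sqle encodes squalene epoxidase, which adds the oxygen needed to close the sterol rings. It stood at 79.2 CPM (72.8 to 86.1) and 37.2 CPM (31.6 to 43.6), 2.13 (1.78 to 2.56)-fold lower in the Cox10-/- library. Msmo1, the sterol C4-methyl oxidase that removes methyl groups from the closed ring, stood at 151.2 CPM (142.2 to 160.5) and 59.8 CPM (52.6 to 67.7), 2.53 (2.201 to 2.91)-fold lower in the Cox10-/- library. For these 3 genes the counting intervals of the libraries lay far apart. Fdft1 shares part of its locus with Ctsb, the cathepsin B gene on the opposite strand, and whether the authors' counts used strand is not given in the sources used here. Ctsb went the other way, from 49.6 CPM to 120.5 CPM.

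**Figure D1:**
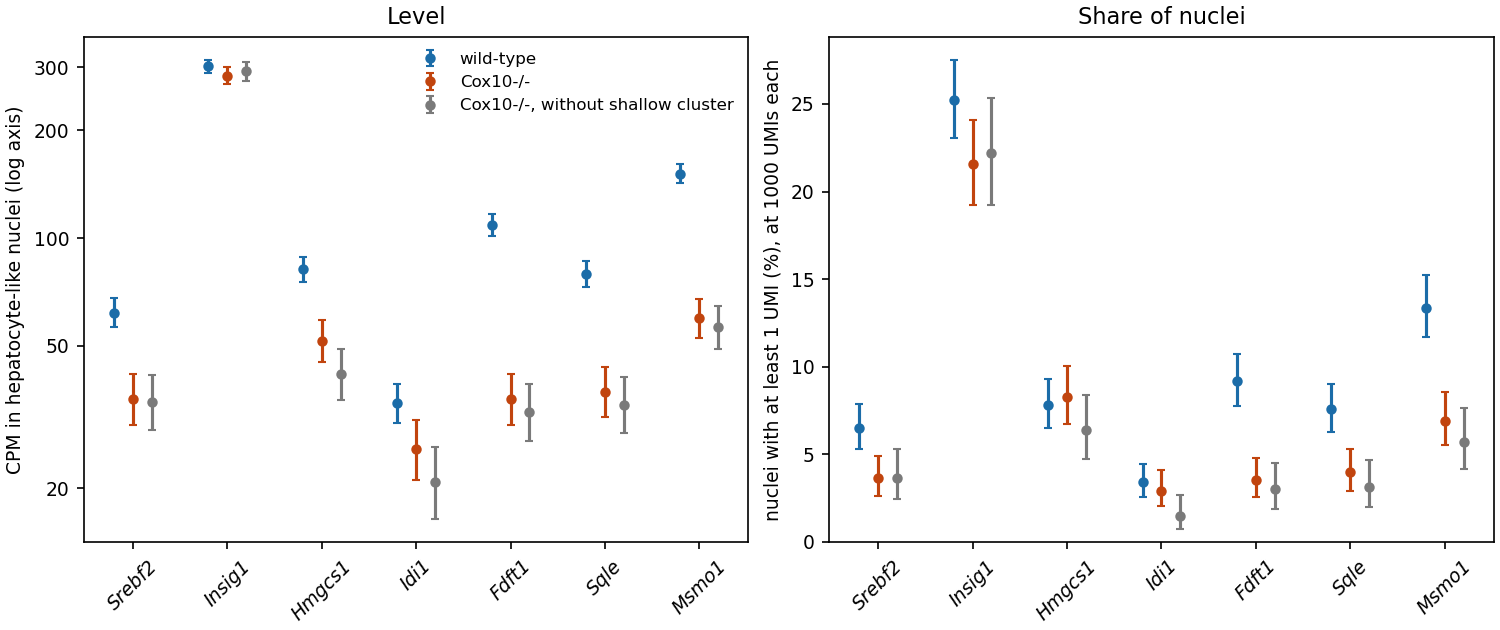
Level in CPM on a log axis (left) and percent of nuclei with at least 1 UMI after each nucleus was thinned to 1000 UMIs (right) for the 7 genes in hepatocyte-like nuclei of the wild-type library, the Cox10-/- library and the Cox10-/- library without its shallow cluster, with points for values and bars for 95% counting intervals. Fdft1, Sqle, Msmo1 and Srebf2 lie lower in the Cox10-/- library in both panels, while Insig1 lies near 300 CPM in each group and Hmgcs1 and Idi1 shift with the shallow cluster.

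Deeper nuclei have more chances to show a UMI, so shares of nuclei were compared after thinning each nucleus to 1000 UMIs, which left out 1 wild-type and 43 Cox10-/- nuclei. Fdft1 was then seen in 9.16% (7.75 to 10.7) of wild-type and 3.55% (2.55 to 4.81) of Cox10-/- hepatocyte-like nuclei, against 36.3% and 11.1% unthinned. Msmo1 was seen in 13.4% (11.7 to 15.2) and 6.93% (5.51 to 8.57), against 44.5% and 17.0% unthinned. Sqle was seen in 7.56% (6.27 to 9.02) and 3.996% (2.93 to 5.31), against 26.5% and 11.3% unthinned. For these 3 genes the intervals of the thinned shares did not overlap between the libraries. No share of all genes is given for this, so the values of these 3 genes and of Srebf2 below describe single genes only.

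Srebf2 was seen in 6.49% (5.29 to 7.86) and 3.64% (2.63 to 4.91) of thinned nuclei (24.1% and 11.7% unthinned), and again the intervals did not overlap. Insig1 was seen in 25.2% (23.03 to 27.5) and 21.6% (19.2 to 24.1) (67.8% and 49.8% unthinned). Hmgcs1 was seen in 7.83% (6.52 to 9.31) and 8.26% (6.72 to 10.02) (28.1% and 16.9% unthinned). With the shallow cluster included, its thinned share thus goes against its level and gives no order. Idi1 was seen in 3.41% (2.55 to 4.46) and 2.93% (2.03 to 4.09) (14.8% and 8.55% unthinned). Without the shallow cluster, thinned Cox10-/- nuclei held Hmgcs1 in 6.39% (4.74 to 8.41) and Idi1 in 1.497% (0.749 to 2.66) of cases. Both shares then lay below wild-type, as the levels did, with overlapping intervals. Srebf2, at 3.67% (2.43 to 5.2999), then just overlapped wild-type. In the shallow cluster Hmgcs1 was seen in 11.8% (8.74 to 15.4) and Idi1 in 5.63% (3.56 to 8.395) of thinned nuclei. Sterol synthesis genes are expressed by most cell types, so no class in the data serves as one that lacks them. In the named non-hepatocyte nuclei of the Cox10-/- library the thinned shares were 2.58% for Fdft1, 3.42% for Msmo1, 2.19% for Sqle and 2.19% for Srebf2. Fdft1 was seen in 3.11% (2.04 to 4.53) of endothelial-like, 2.63% (1.06 to 5.35) of myeloid-like and 1.29% (0.5596 to 2.53) of stellate-like nuclei, so its share in Cox10-/- hepatocyte-like nuclei overlapped the endothelial-like and myeloid-like ones and lay above the stellate-like one.

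The genes were seen together in few nuclei at this depth. At least 1 of the 7 was seen in 53.1% of thinned wild-type and 41.2% of thinned Cox10-/- hepatocyte-like nuclei. In the wild-type library 13.2% of nuclei held exactly 2 of them, 2.74% held 3, and 6 of 1495 nuclei held 4 or more. For the Cox10-/- library, 7.73% held 2, 0.977% held 3 and 0 of 1126 held 4 or more. Wild-type nuclei with another of the genes held Fdft1 in 11.2% (9.03 to 13.7) of cases, and nuclei without another held it in 7.15% (5.42 to 9.23). In Cox10-/- nuclei the values for Msmo1 were 9.18% (6.61 to 12.3) and 5.56% (3.99 to 7.53). For the other gene and library pairs the shares with and without lay closer together.

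Without the shallow cluster, 6 of the 7 genes were lower in the Cox10-/- library, against 9.48% of genes called lower, and 0 were higher, against 12.9%. Hmgcs1 then stood at 41.6 CPM (35.3 to 48.8), a ratio of 0.509 (0.423 to 0.6096) to wild-type. Idi1 stood at 20.8 CPM (16.4 to 26.1), a ratio of 0.603 (0.4596 to 0.782). Fdft1, Sqle, Msmo1 and Srebf2 had ratios of 0.300, 0.432, 0.373 and 0.562, and Insig1 one of 0.968 (0.899 to 1.04).

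Within the Cox10-/- library the shallow cluster held more of the early enzymes than the deeper hepatocyte-like nuclei. Hmgcs1 stood at 122.5 CPM (94.2 to 156.8) in the shallow cluster, 2.94 (2.16 to 3.97) times the deeper level. Idi1 stood at 60.3 CPM (40.97 to 85.6), 2.896 (1.84 to 4.45) times the deeper level. Fdft1 and Sqle were 1.73 (1.11 to 2.62) and 1.70 (1.10 to 2.55) times as high. These 4 genes were called higher and 0 lower, against 16.4% and 28.1% of all genes, in a comparison whose median log2 ratio over all genes was -0.41. Of the 17 measured other synthesis enzymes, 10 were called higher in the shallow cluster and 0 lower, among them Fdps (3.44-fold), Cyp51 (3.41-fold), Nsdhl (3.32-fold) and Ebp (3.12-fold). The summed hepatocyte markers stood at 73534 CPM in the shallow cluster and 36620 CPM in the deeper nuclei. The cluster was formed from all genes, the 7 included, so these values describe it and test nothing. The part of depth and of cytoplasmic RNA in them was not tested.

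The mitochondrially encoded share moved with the same genes. Over all deposited hepatocyte-like nuclei of the Cox10-/- library, Hmgcs1 stood at 35.1 CPM in nuclei with under 5% of such UMIs, 90.0 CPM in those of 5 to 10%, 112.4 CPM in those of 10 to 15% and 56.0 CPM in those of 15 to 20%. In the wild-type library the same 4 ranges gave 84.1, 81.5, 84.8 and 83.8 CPM. Idi1 stood at 19.4, 41.6, 62.5 and 23.3 CPM in the Cox10-/- ranges, and at 37.1, 34.2, 37.7 and 35.3 CPM in the wild-type ranges. Both genes were thus uneven across the ranges of the Cox10-/- library and level across those of the wild-type library.

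When only nuclei of 5 to 10% were compared in both libraries, 3 of the 7 genes stayed lower, namely Fdft1, Sqle and Msmo1, with log2 ratios of -1.21, -0.72 and -1.08, and 0 were higher. In this set 19% of all genes were called lower and 17.9% higher. Srebf2 had a log2 ratio of -0.56, and Hmgcs1 and Idi1 stood slightly above wild-type at 0.13 and 0.26. With the shallow cluster left out as well, 218 Cox10-/- nuclei remained, and the same 3 genes were called lower at -1.42, -1.01 and -1.30, with Hmgcs1 at -0.32 and Idi1 at -0.31. There 8.96% of all genes were called lower and 11.9% higher. Neither set matched the libraries in depth or in ribosomal protein transcripts. Median UMIs were 4299.5 in the wild-type nuclei, against 1239.5 in the Cox10-/- ones with the shallow cluster and 2648 without it. Ribosomal protein transcripts stood at 308 CPM, against 1650 and 951 CPM. Fdft1, Sqle and Msmo1 were thus lower in the Cox10-/- library in each of these sets of nuclei, and the direction for Hmgcs1 and Idi1 rested on the set. Over all deposited nuclei, which reach 19.99% of mitochondrially encoded UMIs, 4 genes were lower (against 11.2% of all genes) and 0 higher (17.6%), and Hmgcs1 had a ratio of 0.717 (0.632 to 0.8104).

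**Figure D2:**
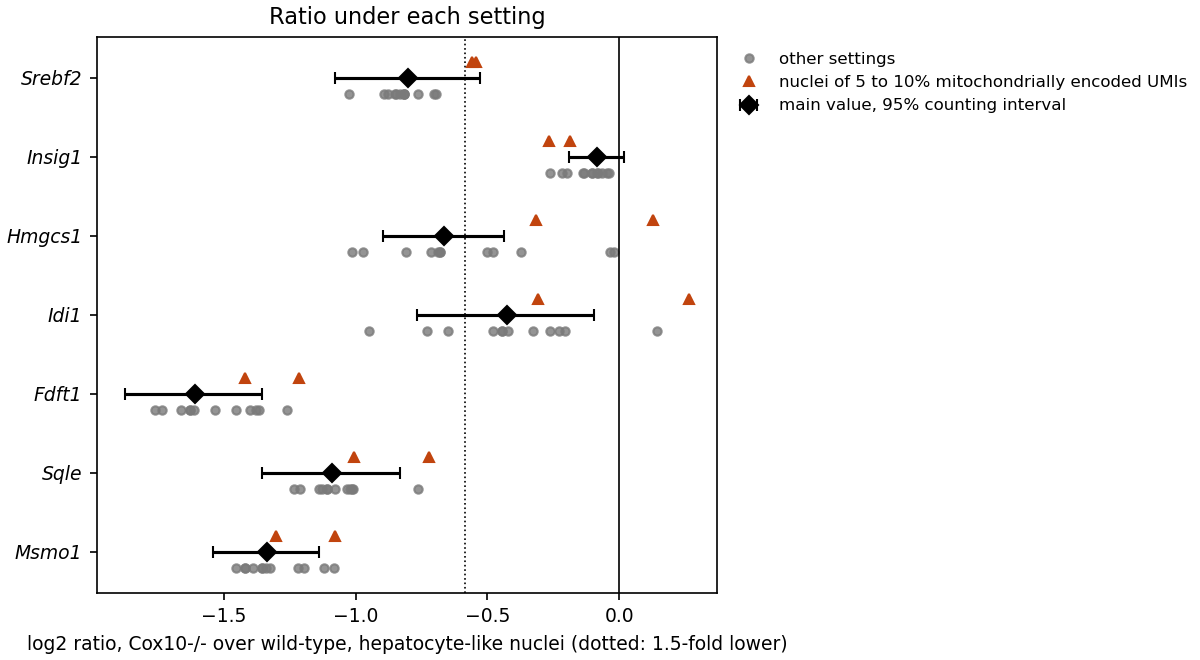
Log2 ratio of Cox10-/- over wild-type in hepatocyte-like nuclei for each gene, with a diamond and its 95% counting interval for the main value, triangles for the sets limited to nuclei of 5 to 10% mitochondrially encoded UMIs and circles for the other settings. Fdft1 (-1.76 to -1.21) and Msmo1 (-1.46 to -1.08) stay well left of the dotted line at 1.5-fold lower, whereas Hmgcs1 (-1.01 to 0.13) and Idi1 cross 0.

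The genes lie on different chromosomes or far apart, as annotated on mm10 in GENCODE vM21. Srebf2 (chr15:82147181-82205379) and Sqle (chr15:59315077-59331192) lie on the plus strand of chromosome 15, and Hmgcs1 (chr13:119690379-119708260) and Idi1 (chr13:8885501-8892451) on the plus strand of chromosome 13. Insig1 lies at chr5:28071363-28078662 on the plus strand, Fdft1 at chr14:63145150-63179578 and Msmo1 at chr8:64718139-64733792, both on the minus strand. All are protein-coding. Counts in the table are per whole gene, so no exon, intron or UTR can be told apart.

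SREBP-2 is known to bind sterol regulatory elements near the start of its target genes, commonly beside a CCAAT box bound by NF-Y. The windows of 250 bases before the start given by RefSeq (GRCm38.p6) were searched on both strands for TCACNCCA, the core of such an element, and for CCAAT. Windows were found for 5 of the 7 genes, Srebf2, Insig1, Hmgcs1, Idi1 and Msmo1. Over 32851 such windows, 3.67% held TCACNCCA, 33.8% held CCAAT and 1.29% held both; a TCACNCCA followed by AT would also hold a CCAAT, and no such overlap occurred in the 5 windows. Srebf2 held TCACNCCA from 162 to 155 bases before the start and 1 CCAAT, Hmgcs1 held it from 137 to 130 bases before the start with 3 CCAAT, and Msmo1 held it from 177 to 170 bases before the start with 3 CCAAT. Insig1 held 1 CCAAT and Idi1 held 2, and neither held TCACNCCA in this window. Only 36 bases of the Msmo1 window and 145 of the Idi1 window lie before the GENCODE start. All matches of these 2 genes thus fall inside the gene as GENCODE annotates it. The windows of Srebf2, Hmgcs1 and Insig1 are printed below. Each shows the part of the window that lies before the first start in either annotation, with motif matches in capitals (ATTGG is CCAAT on the other strand).
Srebf2, chr15:82147019-82147180, plus strand: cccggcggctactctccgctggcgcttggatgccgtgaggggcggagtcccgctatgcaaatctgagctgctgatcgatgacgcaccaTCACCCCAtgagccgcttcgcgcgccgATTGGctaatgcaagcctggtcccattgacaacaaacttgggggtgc
Hmgcs1, chr13:119690101-119690350, plus strand: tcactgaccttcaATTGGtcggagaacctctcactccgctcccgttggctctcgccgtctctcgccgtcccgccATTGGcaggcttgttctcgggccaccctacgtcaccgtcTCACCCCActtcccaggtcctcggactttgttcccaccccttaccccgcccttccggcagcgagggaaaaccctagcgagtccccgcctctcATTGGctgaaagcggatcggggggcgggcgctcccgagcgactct
Insig1, chr5:28071162-28071362, plus strand: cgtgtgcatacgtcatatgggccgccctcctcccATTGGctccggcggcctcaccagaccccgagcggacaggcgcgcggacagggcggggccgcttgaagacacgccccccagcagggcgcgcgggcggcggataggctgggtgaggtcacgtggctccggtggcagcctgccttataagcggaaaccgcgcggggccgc
A match describes the letters only, and the search covered this exact core in 250 bases, so a window without it is not shown to lack an element. Whether a motif goes with the ratio between the libraries was not tested, since only 5 of the 7 genes had a window. No binding was measured.

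The next comparison placed the genes along the liver lobule, where hepatocytes near the portal vein and near the central vein carry different metabolic programmes. Within each library, hepatocyte-like nuclei were ranked by the mean level of 15 pericentral markers minus that of 15 periportal markers and split into 3 groups of equal size. These zone groups are ranges of this score, not cell types: 310 of 1496 wild-type and 176 of 1169 Cox10-/- nuclei lay within 0.05 of a boundary. Between the outer zone groups 13 of 15 pericentral and 12 of 15 periportal markers moved in their stated direction in the wild-type library, and 15 and 13 of 15 in the Cox10-/- library. The score was built from these same markers, so the counts describe the zone groups and do not check them. The shallow cluster was spread unevenly, with 37 nuclei in the periportal group, 210 in the middle and 185 in the pericentral group.

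In the wild-type library 1 of the 7 genes, Sqle, was lower in the pericentral than in the periportal group and 0 were higher, against 4.27% of all genes called lower and 3.73% called higher. Sqle fell along the score, from 93.8 CPM (81.7 to 107.1) through 85.96 CPM (74.6 to 98.5) to 58.4 CPM (49.1 to 68.96), a ratio of 0.623 (0.4996 to 0.774) between the outer zone groups. Over all deposited nuclei its log2 ratio was -0.53, short of the call. Msmo1 stood at 129.8 CPM (115.5 to 145.4), 155.3 CPM (140.0 to 171.9) and 167.6 CPM (151.6 to 184.9). Its ratio of 1.29 (1.11 to 1.51) lay above 1 but under 1.5-fold. Sqle was thus the 1 gene of the 7 called between the outer zone groups of the wild-type library.

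Insig1 stood at 327.8, 301.1 and 277.7 CPM in the wild-type zone groups from periportal to pericentral, a ratio of 0.847 (0.762 to 0.942). Fdft1 stood at 115.9, 109.6 and 100.4 CPM, and Srebf2 at 56.0, 68.9 and 60.5 CPM. Hmgcs1 stood at 70.8, 90.5 and 83.6 CPM, and Idi1 at 35.6, 36.1 and 31.9 CPM. The intervals of the outer zone groups overlapped for these 4 genes and lay apart for Insig1. Sqle measured 96.2, 73.8 and 50.6 CPM in the wild-type hepatocyte-like clusters of 731, 476 and 280 nuclei. The clusters hold the same nuclei and were formed from the same counts, so these values describe them only.

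In the Cox10-/- library 2 genes, Fdft1 and Msmo1, were higher in the pericentral group and 0 were lower, against 7.22% of all genes called higher and 4.94% called lower. Msmo1 stood at 42.3 CPM (33.5 to 52.6), 67.02 CPM (52.3 to 84.5) and 80.7 CPM (65.6 to 98.4), a ratio of 1.91 (1.41 to 2.599). Fdft1 stood at 25.4 CPM (18.7 to 33.6), 46.3 CPM (34.2 to 61.2) and 42.02 CPM (31.3 to 55.2), a ratio of 1.66 (1.09 to 2.51). Without the shallow cluster, with the zone groups drawn anew, the ratios were 2.06 (1.44 to 2.97) for Msmo1 and 1.77 (1.104 to 2.88) for Fdft1 (5.56% of genes called higher). Both genes were thus called higher in the pericentral group with and without the shallow nuclei. The call of Fdft1 was lost under 2 of 4 other settings, with a log2 ratio of 0.57 for 2 groups along the score in place of 3 and 0.70 after thinning. That of Msmo1 was kept under all 4.

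Sqle stood at 34.9, 43.4 and 35.4 CPM in the Cox10-/- zone groups, a ratio of 1.02 (0.675 to 1.51). Without the shallow cluster it stood at 41.0, 36.6 and 24.3 CPM and was called lower in the pericentral group, with a ratio of 0.592 (0.365 to 0.944) (4.07% of genes called lower). Hmgcs1 stood at 40.7, 66.1 and 56.0 CPM with the shallow cluster, and at 37.4, 41.2 and 46.9 CPM without it. The middle value of Hmgcs1 therefore moved most when those nuclei were left out. Insig1 stood at 301.8, 272.8 and 267.8 CPM, Srebf2 at 35.4, 37.8 and 33.8 CPM, and Idi1 at 24.8, 26.4 and 26.4 CPM, each with overlapping intervals across the zone groups.

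**Figure D3:**
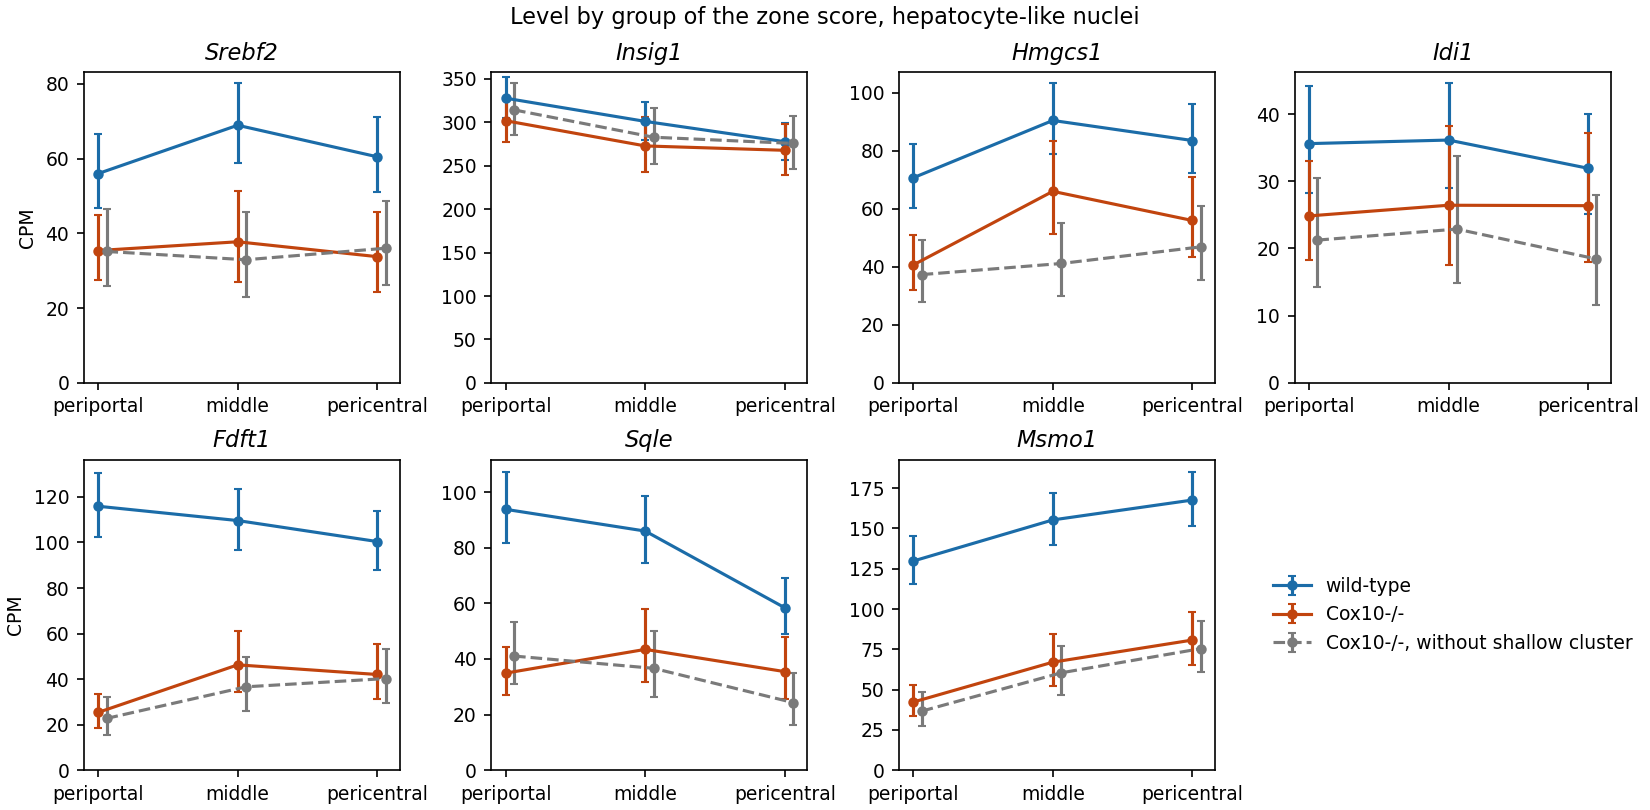
Level in CPM of each gene in the periportal, middle and pericentral group of the zone score, with the wild-type library in blue, the Cox10-/- library in red and the Cox10-/- library without its shallow cluster dashed in grey, and bars for 95% counting intervals. Sqle slopes down in the wild-type library (93.8 to 58.4 CPM), and Msmo1 slopes up in both libraries, from 129.8 to 167.6 CPM and from 42.3 to 80.7 CPM.

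Set side by side by zone, 5, 4 and 4 of the 7 genes were lower in the Cox10-/- library in the periportal, middle and pericentral groups, against 8.87%, 12% and 10.3% of genes called lower. In each zone group 0 were higher, against 11.1%, 15.3% and 15.5%. Fdft1 had ratios of 0.219 (0.157 to 0.299), 0.422 (0.304 to 0.574) and 0.418 (0.303 to 0.568) to wild-type. Sqle had ratios of 0.372 (0.278 to 0.492), 0.505 (0.359 to 0.698) and 0.607 (0.421 to 0.8596), and Msmo1 of 0.326 (0.251 to 0.418), 0.432 (0.3300 to 0.557) and 0.482 (0.382 to 0.602). Srebf2 was lower in every zone group, at 0.632, 0.548 and 0.558 of wild-type. Hmgcs1 was called lower in the periportal group, at 0.575, and had 0.730 and 0.670 in the other two.

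These values depended in part on the shallow cluster. When it was left out and the Cox10-/- zone groups were drawn anew, 6 of the 7 genes were lower in each group and 0 were higher. The shares of all genes called lower were then 8.92%, 8.4% and 8.56%, and those called higher 9.49%, 11.7% and 12.1%. Hmgcs1 had ratios of 0.528 (0.378 to 0.727), 0.455 (0.322 to 0.6296) and 0.561 (0.4096 to 0.758) and was called in every group, as was Idi1 at 0.597 (0.377 to 0.922), 0.633 (0.389 to 0.998) and 0.577 (0.342 to 0.938). Fdft1 had 0.196 (0.131 to 0.285), 0.334 (0.233 to 0.467) and 0.401 (0.287 to 0.548), and Msmo1 had 0.282 (0.205 to 0.382), 0.389 (0.295 to 0.506) and 0.4499 (0.354 to 0.567). For both, the smallest ratio was that of the periportal group with and without the shallow cluster. Sqle had 0.438 (0.3201 to 0.589), 0.426 (0.296 to 0.5999) and 0.416 (0.269 to 0.624), nearly the same in each group. Whether ratios differ between zone groups was not tested, since each library was ranked on its own score.

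The last comparison set hepatocyte-like nuclei against the other lineages, which could be done by class in the Cox10-/- library, where 837 endothelial-like, 619 stellate-like and 271 myeloid-like nuclei were kept. Of the 7 genes, 4 were lower than in hepatocyte-like nuclei in the endothelial-like class (against 22.7% of all genes), 5 in the stellate-like class (25.5%) and 3 in the myeloid-like class (19.7%). In none of these classes was any of the 7 higher, against 26.7%, 22.4% and 25.9% of all genes. Against the deeper hepatocyte-like nuclei alone, 3, 5 and 3 genes were lower (23.3%, 26.4% and 21% of all genes), and 1, 0 and 0 were higher (30.2%, 24.5% and 27.6%). Insig1 showed the largest difference in each class. Hmgcs1 and Idi1 differed by less than 1.5-fold in all 3. Droplets share free RNA: the 15 hepatocyte markers together stood at 69.5% of their hepatocyte-like level in the endothelial-like, 59.0% in the stellate-like and 60.2% in the myeloid-like class, and the part of free hepatocyte RNA in the values of the 7 genes was not tested.

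Levels of Insig1 were 284.5 CPM (268.5 to 301.2) for hepatocyte-like nuclei, 89.5 CPM (69.5 to 113.5) for myeloid-like, 86.1 CPM (73.8 to 99.9) for endothelial-like and 52.6 CPM (42.3 to 64.5) for stellate-like ones. The ratios to hepatocyte-like nuclei were 0.315 (0.243 to 0.402), 0.303 (0.257 to 0.355) and 0.185 (0.148 to 0.229). The myeloid-like and endothelial-like levels overlapped, and the stellate-like level lay below both. After thinning, Insig1 was seen in 21.6% of hepatocyte-like, 9.40% of myeloid-like, 8.14% of endothelial-like and 4.68% of stellate-like nuclei.

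Msmo1 stood at 59.8 CPM (52.6 to 67.7) in hepatocyte-like nuclei and at 34.2, 31.2 and 27.7 CPM in the myeloid-like, stellate-like and endothelial-like classes, whose intervals overlapped. Sqle stood at 37.2 CPM (31.6 to 43.6), and at 23.7 CPM in the endothelial-like, 16.8 CPM in the stellate-like and 13.2 CPM in the myeloid-like class. Both genes were called lower in all 3 classes, and without the shallow cluster Sqle was not called in the endothelial-like class, at 0.694 (0.487 to 0.975). The Srebf2 levels of hepatocyte-like (35.5 CPM) and myeloid-like nuclei (38.2 CPM) overlapped, as did those of the endothelial-like (21.3 CPM) and stellate-like classes (16.8 CPM).

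Fdft1 reached 35.5 CPM (30.04 to 41.7) in hepatocyte-like nuclei, and the endothelial-like, myeloid-like and stellate-like classes had 31.2, 29.0 and 20.2 CPM of it. Only the stellate-like class was called lower, at a ratio of 0.569 (0.382 to 0.827). Hmgcs1 measured 51.6 CPM in hepatocyte-like nuclei and 66.3, 59.3 and 53.2 CPM in those classes, in the same order. Idi1 measured 25.7 CPM, and 23.3, 23.7 and 29.5 CPM. When the shallow cluster was left out, Hmgcs1 was called higher in the endothelial-like class than in hepatocyte-like nuclei, at 1.59 (1.25 to 2.02). Fdft1 and Idi1 differed by less than 1.5-fold between hepatocyte-like nuclei and the endothelial-like and myeloid-like classes, with and without the shallow cluster.

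Lymphoid-like (42) and cholangiocyte-like (22) nuclei were too few for a comparison. The lymphoid-like sum held 2 to 9 UMIs of each gene. Idi1 had 0 UMIs in the cholangiocyte-like sum, which allows up to 36.5 CPM at this depth. The 176 nuclei left unnamed held Srebf2 at 62.6 CPM (46.6 to 82.3), the highest level of that gene among the Cox10-/- groups of over 50 nuclei.

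**Figure D4:**
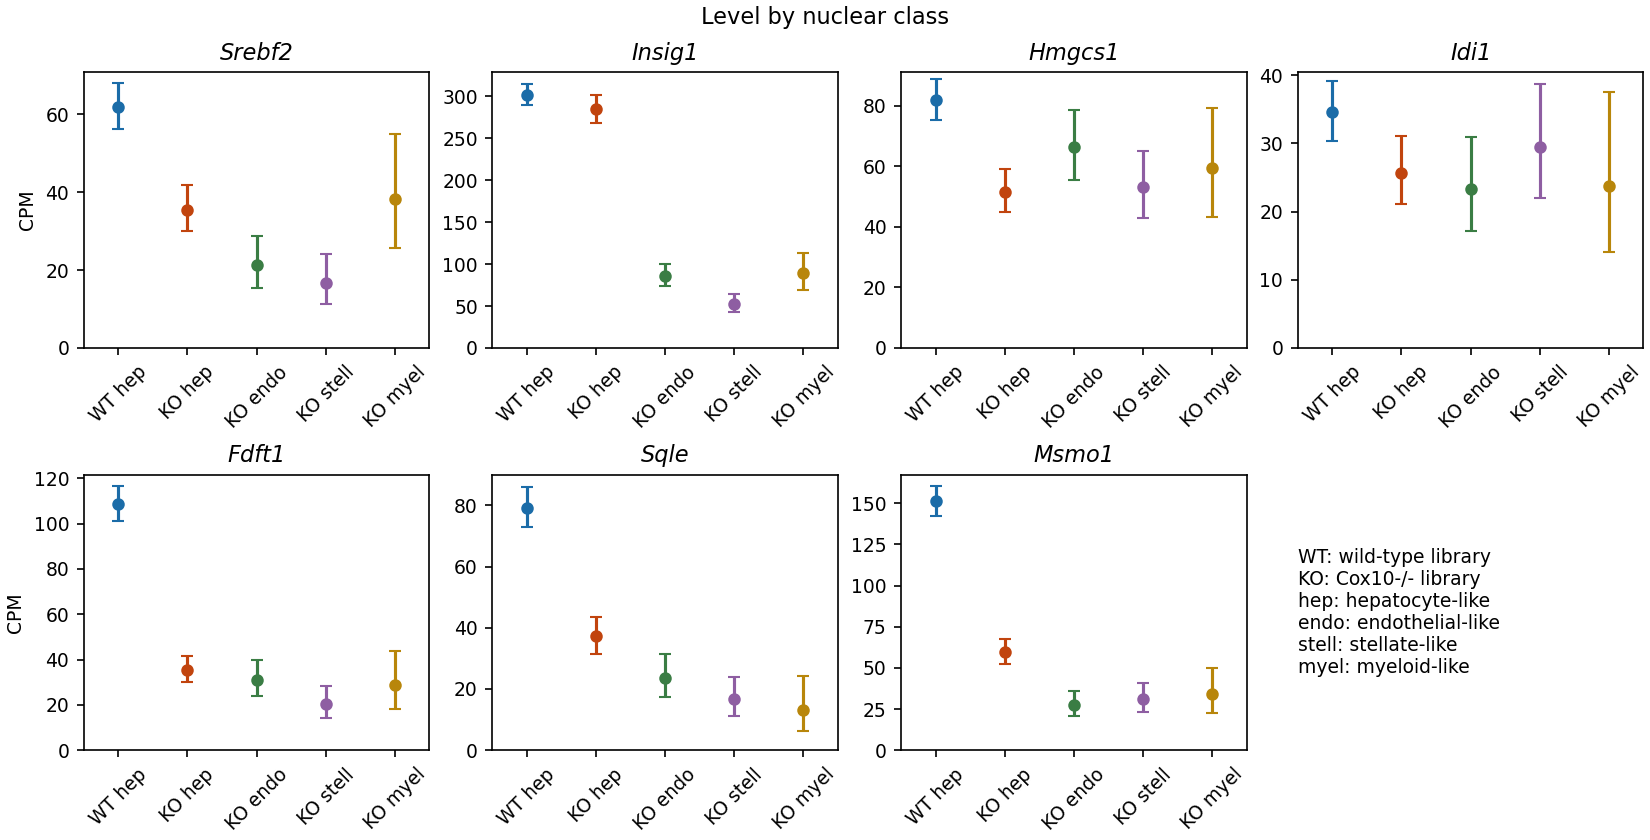
Level in CPM of each gene in wild-type hepatocyte-like nuclei and in the hepatocyte-like, endothelial-like, stellate-like and myeloid-like nuclei of the Cox10-/- library, with bars for 95% counting intervals and a separate axis for each gene. Insig1 stays near 300 CPM in both hepatocyte-like groups and between 52.6 and 89.5 CPM in the other classes, whereas Fdft1 drops from 108.6 CPM in wild-type hepatocyte-like nuclei to 35.5 CPM in Cox10-/- ones, close to the 31.2 CPM of endothelial-like nuclei.

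To set both libraries against other lineages, all deposited nuclei were used, which gave 155 named other nuclei for wild-type and 3192 for Cox10-/-. In the wild-type library Insig1 and Sqle were higher in hepatocyte-like nuclei, by 1.704 (1.36 to 2.16) and 2.81 (1.603 to 5.45) times, against 7.76% of all genes called higher, and 0 were lower (14.5%). In the Cox10-/- library Insig1, Sqle and Msmo1 were higher, by 3.797 (3.45 to 4.18), 1.66 (1.35 to 2.04) and 1.86 (1.58 to 2.19) times, against 16.9% of genes, and again 0 were lower (35.6%). Between the libraries, the named other nuclei of the Cox10-/- library were lower for 4 of the 7 genes, against 9.29% of genes, and higher for 0, against 12.5%. Fdft1 measured 82.2 CPM in the other nuclei of the wild-type library and 29.4 CPM in those of the Cox10-/- one, which gave a ratio of 0.358 (0.252 to 0.521). Msmo1 stood at 97.8 and 33.0 CPM, Insig1 at 171.1 and 72.7 CPM, and Srebf2 at 60.0 and 28.0 CPM. The other nuclei of each library thus differed in Fdft1, Msmo1 and Srebf2 in the same direction as the hepatocyte-like nuclei of that library. The hepatocyte markers stood at 71.9% of their hepatocyte-like level in the wild-type other nuclei and at 59.7% in the Cox10-/- ones, and the mix of lineages differed, so free RNA and lineage cannot be told apart here. The wild-type sums held 12 to 77 UMIs per gene.

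Conversely, markers of the other lineages were low in the hepatocyte-like sums, which the naming of clusters by these markers required in part. The 15 endothelial markers gave 29.9 CPM in wild-type and 67.2 CPM in Cox10-/- hepatocyte-like nuclei when summed, against 12409 CPM in endothelial-like nuclei. The 15 stellate markers summed to 111.1 and 272.8 CPM, against 30424 CPM in stellate-like nuclei. The 15 myeloid markers summed to 18.05 and 93.2 CPM, against 4160 CPM in myeloid-like nuclei. Wnt2 and Vwf were at 0 in both libraries, and Pdgfrb, Col3a1 and Col1a1 were at 0 in the wild-type one.

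Beyond the 7 genes, the other 18 listed enzymes of cholesterol synthesis were all measured. In hepatocyte-like nuclei 5 were lower in the Cox10-/- library (10.9% of all genes), 0 were higher (16.3%) and 13 differed by less, with a median log2 ratio of -0.21 against -0.03 for all genes. Mvd, the decarboxylase that closes the mevalonate steps, fell from 12.0 CPM in wild-type to 3.60 CPM in Cox10-/- nuclei, with a ratio of 0.3005 (0.161 to 0.524). Nsdhl, which acts with Msmo1 in removing the C4 methyl groups, had a ratio of 0.359 (0.273 to 0.467). Fdps, which makes farnesyl diphosphate, had 0.437 (0.3602 to 0.526), and Hsd17b7, the ketoreductase of the same demethylation complex, had 0.582 (0.457 to 0.735). The genes called lower thus included Msmo1, Nsdhl and Hsd17b7, whose products carry out C4 demethylation, and Fdps and Fdft1, which act on either side of farnesyl diphosphate. Lss, the cyclase of squalene epoxide, was the fifth, at 0.649 (0.475 to 0.877). The later enzyme Dhcr7 had a ratio of 0.907 (0.723 to 1.13) and was not called. With the deeper nuclei alone, 5 of the 18 were again lower and 0 higher, against 9.48% and 12.9% of all genes, with Sc5d in place of Lss. Among nuclei of 5 to 10% mitochondrially encoded UMIs, 2 of the 18 were lower and 4 higher, against 19% and 17.9% of all genes. Their median log2 ratio was then -0.17, and that of all genes -0.19. With the shallow cluster left out as well, 3 were lower and 1 higher (8.96% and 11.9%), with medians of -0.28 and -0.08. The counts for these enzymes thus rested on the set of nuclei.

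Of 12 genes of SREBP processing and its control, 1 was lower and 2 were higher. Counts in this list and the 3 lists that follow lay near or below the shares of all genes in this comparison, 10.9% lower and 16.3% higher, so the values describe single genes and not the lists. Scap, the escort of SREBP-2, had a ratio of 0.598 (0.5098 to 0.699). Srebf1, which encodes the factor known for fatty acid synthesis genes, went from 86.7 CPM in wild-type to 162.5 CPM in Cox10-/- nuclei, with a ratio of 1.87 (1.68 to 2.09). Tmem97, which encodes the sigma-2 receptor, had a ratio of 2.24 (1.69 to 2.996). The second retention gene, Insig2, had a ratio of 1.23 (1.12 to 1.36), and the site proteases Mbtps1 and Mbtps2 had 1.01 (0.846 to 1.21) and 1.09 (0.859 to 1.38). Srebf2 and Srebf1 thus lay on opposite sides of wild-type in the same nuclei.

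Of 16 genes of lipoprotein uptake and intracellular sterol transport, 15 were measured, 2 were lower and 3 were higher. Stard4, a sterol carrier, stood at 201.5 and 102.0 CPM, a ratio of 0.506 (0.453 to 0.565). Scarb1, the HDL receptor, had a ratio of 1.59 (1.46 to 1.72), Npc2, a sterol-binding protein of the lysosome, had 1.63 (1.22 to 2.19), and Mylip, a ubiquitin ligase that acts on lipoprotein receptors, had 4.04 (1.69 to 10.7) from 8 and 19 UMIs. Without the shallow cluster Scarb1 alone of the list was called higher, at 1.72 (1.58 to 1.87), against 12.9% of all genes.

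Of 11 genes of sterol efflux, esterification and the LXR receptors, 9 were measured. Nceh1, a cholesteryl ester hydrolase, was lower at 0.525 (0.421 to 0.649), and Lcat, the plasma esterifying enzyme, was higher at 1.52 (1.31 to 1.77). Lcat was not called without the shallow cluster, where 0 genes of the list were higher. Abca1, the efflux pump to apolipoprotein A-I, had a ratio of 1.15 (1.07 to 1.23). Of 10 genes of the mevalonate branches other than sterol, Fntb, a subunit of protein farnesyltransferase, was the 1 called, lower at 0.399 (0.259 to 0.598).

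**Figure D5:**
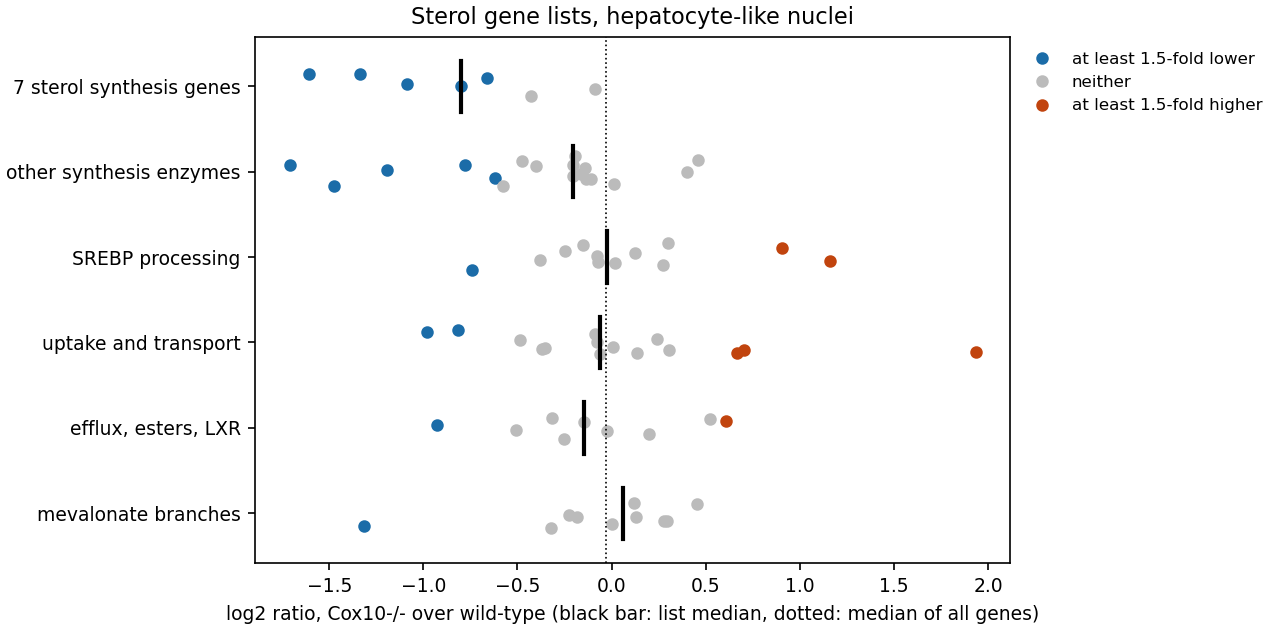
Log2 ratio of Cox10-/- over wild-type in hepatocyte-like nuclei, with 1 point per measured gene of each list, blue for at least 1.5-fold lower, red for at least 1.5-fold higher and grey for neither, a black bar at each list's median and a dotted line at the median of all genes (-0.03). The 7 genes have a median of -0.80 and the other synthesis enzymes one of -0.21, while the medians of the remaining lists lie between -0.14 and 0.06.

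Across zones the other synthesis enzymes showed few calls. In the wild-type library 0 of 18 differed between the outer zone groups, where 3.73% of all genes were called higher and 4.27% lower. In the Cox10-/- library 16 were measured, 3 were higher in the pericentral group (Hsd17b7 at 2.47, Fdps at 2.04 and Ebp at 1.68) and 2 were lower (Lss at 0.410 and Fdxr at 0.480), against 7.22% and 4.94% of all genes. Without the shallow cluster 2 were higher, Hsd17b7 at 2.96 (1.66 to 5.53) and Lbr at 2.29 (1.10 to 5.02), and 1 was lower, Fdxr at 0.529 (0.316 to 0.866), against 5.56% and 4.07% of all genes. Fdps, at 1.62 (0.933 to 2.86), and Ebp, at 1.47 (0.925 to 2.36), were then not called, so among these enzymes Hsd17b7 and Fdxr kept their calls.

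Genes whose profile was most like that of the 7 were sought over 10 sums, the 3 zone groups of each library and the endothelial-like, stellate-like, myeloid-like and lymphoid-like classes of the Cox10-/- library, among 6585 genes outside or inside the lists with at least 20 CPM on average. The nearest outside the lists were Hacl1 (r = 0.981), Acss2 (r = 0.979), Glyat (r = 0.975), Slco1a1 (r = 0.972) and Acat1 (r = 0.972), where r is Pearson's correlation with the mean log2 profile of the 7. The sums share libraries and hepatocyte content, so r describes them only. Acss2, the cytosolic enzyme that makes acetyl-CoA from acetate, stood at 296.6 to 319.3 CPM in the wild-type zone groups, 102.0 to 131.0 CPM in the Cox10-/- zone groups and 40.4 to 96.9 CPM in the other classes. Among the 7, Fdft1 and Sqle were the most alike (r = 0.895), followed by Fdft1 and Msmo1 (r = 0.876), and Srebf2 and Idi1 the least (r = 0.162). The lymphoid-like sum was the highest of the 10 for Srebf2 and the lowest for Idi1, from 8 and 2 UMIs. The r of this pair thus leans on few UMIs, and r without that sum was not computed.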

How the data were processed

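Nuclear RNA of 2 libraries, 1 per group, was counted by the authors with Cell Ranger 7.0 on mm10, per the submitters' processing notes. The deposited table holds raw counts of UMIs per gene and nucleus, with no normalization. What the counting did with introns and strand, and how the authors filtered nuclei, is not given in the sources used here. Nuclei were named wild-type or Cox10-/- from the prefix of their column.

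Nuclei were kept from 500 UMIs and 300 genes upwards, with mitochondrially encoded UMIs at 10% or less, and clustered with scanpy 1.11.5 (10000 counts per nucleus, log scale, 2000 variable genes, 30 components, 15 neighbours, Leiden resolution 1.0, seed 1, no integration of libraries). No doublet caller was run. Clusters were named from marker lists. The marker excess was the mean log2 ratio of a cluster's sum to that of the remaining nuclei. A hepatocyte-like cluster needed a hepatocyte marker excess at least 0.5 above that of every other class. Every other class had to lie below 0, and at least 3 hepatocyte markers had to be detected. For any other class the excess had to reach 2 in that class alone, with 3 or more markers detected and a leading marker at least 8-fold up. A named cluster whose median UMI count was over 3-fold below its library's also needed a marker of its class among its 10 leading genes. These thresholds were chosen after seeing the data, and 1 wild-type and 176 Cox10-/- nuclei stayed unnamed. A cluster counted as shallow when its median UMI count was under 50% of its library's.

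UMIs were summed per library and class or zone group, divided by the total of the sum and given as CPM, and log2 ratios used a prior of 0.5 UMI. Intervals are exact: Poisson for levels, conditional binomial for ratios and Clopper-Pearson for shares. A count of 0 allows up to 3 counts of the sum. A gene entered a comparison from 20 UMIs upwards, both sums together. Wild-type hepatocyte-like sums held 7091677 UMIs and Cox10-/- ones 4164913. The call rule was run on simulated Poisson counts with planted ratios, the model that the intervals assume. That checks the calculation only and says nothing of the spread between animals or nuclei. Alternatives included TMM (edgeR 4.0.16) and DESeq2 1.42.0 size factors computed on the summed counts.

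The 7 genes, the lists and the rule for named genes (the 7, up to 4 called genes each way per list, and the 5 most alike profiles) were chosen with earlier results of these data known. List genes that were not called, Ctsb and the members of lists by zone were named after their values were seen. Some list genes enter the counts and medians and are not reported here by name. Promoter sequences are from RefSeq, GRCm38.p6, and positions from GENCODE vM21.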

Additional observations from a re-analysis of the deposited data

Results flagged for a closer look

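For 2 genes the slope along the zone score had opposite signs in the libraries, with a call in 1 of them. Fdft1 had a log2 ratio of -0.21 between the pericentral and periportal zone groups in the wild-type library and 0.72 in the Cox10-/- library, a difference of 0.93. Sqle had -0.68 and 0.02, a difference of 0.70. Each library is 1 sample, so neither difference was tested. Without the shallow cluster, of which 37 nuclei fell in the periportal and 185 in the pericentral group, Sqle had -0.75 in the Cox10-/- library, the same sign as in the wild-type library, and Fdft1 had 0.81. The part of the shallow nuclei in the slopes was not tested further.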

How the results depend on the processing

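No paired analysis was possible because each group is 1 library and no test was run. The count of genes lower in Cox10-/- hepatocyte-like nuclei was 5, and 4 to 6 under the other library sizes, filters, resolutions and ways of summing. It was 3 with nuclei of 5 to 10% mitochondrially encoded UMIs, with or without the shallow cluster, and there Hmgcs1 had a log2 ratio of 0.13 with that cluster. Both sets, and leaving out the 4% of nuclei with the most UMIs, were chosen after seeing the data. TMM and DESeq2 size factors each gave 5. Across all 14 settings Fdft1, Sqle and Msmo1 were called lower, Srebf2 in 12, Hmgcs1 in 7 and Idi1 in 2, and Insig1 in 0.

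Over all deposited nuclei the zone comparison gave 0 lower genes in the wild-type library. In the Cox10-/- library it gave 1 lower gene (Sqle) without the shallow cluster, and 1 higher gene after thinning, when Msmo1 kept its call and Fdft1 did not. Between the libraries by zone, 6 genes were lower in each group without that cluster, a set chosen after seeing the data. Leaving out the shallow cluster has no counterpart in the wild-type library and was not run there. In the endothelial-like comparison 1 gene was higher without that cluster. With no filter on low counts 7.10% of genes were called lower, in place of 10.9%, since more genes of few UMIs entered. Values of the endothelial-like, stellate-like and myeloid-like classes rest on 10 to 174 UMIs per gene and class. Those of the lymphoid-like class rest on 2 to 9 and those of the cholangiocyte-like class on 0 to 7.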
